A study of Mus musculus with 9 samples.

Results

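Autophagy and lysosome genes are described here as a set of 41 genes, taken by symbol from the 53465 gene rows of the count files and grouped by step into initiation (16 genes), conjugation (12), cargo receptors (4), lysosome (6) and mitophagy (3). Each symbol matched 1 gene ID, and all 41 passed the filter on low counts, among 13825 genes that did. RNA had been sequenced from the border zone of the infarct in hearts of the NOD-SCID mouse, a strain that lacks functional T and B lymphocytes. The first group had sham surgery, the ligation group had a coronary artery tied off, and the third group had the ligation and an implant of FOXO3-GE-MPCs, written below as ligation plus cells. Each group had 3 libraries. The labels give no age, sex, dose or time after surgery and do not spell out the name of the implanted cells. They do not say whether libraries came from separate animals, so p-values measure the spread between these libraries, which may in part be technical. Ligated hearts given another implant were not analysed here, so an effect of FOXO3 and one of implanting cells cannot be told apart.

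Autophagy encloses cytoplasm, protein aggregates or whole organelles in a double membrane and delivers them to the lysosome for digestion. The ULK1 kinase complex starts the process, a lipid kinase complex built around beclin 1 marks the forming membrane, and a conjugation machinery akin to ubiquitination attaches Atg8-family proteins (the LC3 and GABARAP groups) to that membrane, where receptors dock their cargo. In the heart, whose long-lived muscle cells depend on turnover of mitochondria, the pathway is known to respond to ischaemia and haemodynamic load. Transcript levels alone do not measure the flux through it, since much of its control acts on proteins.

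Libraries held 4549268 to 7515052 counts assigned to genes, so 3 counts, taken as the smallest detectable level, corresponded to 0.375 to 0.639 CPM (read counts scaled to a common library size, after TMM scaling, a correction of library totals for composition). The 41 genes lay well above that, between 10.01 and 818 CPM, with at least 47 counts in every library and a median SD of 5.24% of the mean within a group. Mitochondrially encoded genes took 19.1% to 19.9% of counts in sham, 12.5% to 13.9% after ligation and 14.3% with cells. The 12 cardiomyocyte markers summed to 72780 to 74820 CPM in sham, 55340 to 59140 after ligation and 56430 to 58280 with cells. Of 8 lymphocyte markers, 3 were at 0 in all libraries while the 8 together reached at most 3.33 CPM. The 10 fibroblast markers summed to 2529 to 2592 CPM in sham, 4505 to 4589 after ligation and 4224 to 4337 with cells. In the same order of groups, the 8 endothelial markers summed to 2223 to 2351, 1543 to 1653 and 1642 to 1690 CPM. The 7 smooth muscle and pericyte markers summed to 1590 to 1642, 1140 to 1164 and 1151 to 1183 CPM. The 8 neutrophil markers summed to 33.3 to 39.9, 9.16 to 11.8 and 3.17 to 5.13 CPM. The 17 macrophage markers, none of them at 0 in all libraries, summed to 871 to 931 CPM in sham, 1515 to 1550 after ligation and 646 to 668 with cells. In the source field of ligation plus cells replicates 2 and 3 another FOXO number is written, while title and treatment name FOXO3, which was followed. File headers give sham replicates 1 and 2 the same name stem, as they do ligation replicates 2 and 3.

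After ligation, transcripts of Atg13, Becn1, Atg9a (initiation), Gabarapl1 (conjugation), Sqstm1 (receptor), Lamp1 and Ctsb (lysosome) were higher than in sham. Their log2 fold changes were 0.45 to 0.58, whereas Pink1, Map1lc3a, Atg2a and Gabarapl2 were lower. Exons of other genes overlap 43.9% of Becn1, 32.6% of Atg9a and 28.3% of Gabarapl1, which makes these counts uncertain. The calls of Atg2a and Gabarapl2 were lost under several other settings, given below. Of the 41 genes, 13 rose and 4 fell (edgeR, adjusted p under 0.05 over all genes tested), 41.5% in all. The same call was made for 38.2% of all 13825 genes tested, 20.1% higher and 18.0% lower, so the total share called lies near the background, while its split is 13 of 41 higher and 4 of 41 lower. The median log2 fold change of the 41 genes was 0.11, beside 0.01 for all genes. With library totals as the only scaling the median of all genes moved to 0.20 and the split of the 41 genes became 24 higher and 2 lower, beside 4966 higher and 1346 lower of all 13825 genes, so each direction given here is relative to the bulk of genes. By step, 6 of 16 initiation genes rose and 1 fell, 1 of 12 conjugation genes rose and 2 fell, 1 of 4 receptors rose, 4 of 6 lysosomal genes rose, and 1 of 3 mitophagy genes rose and 1 fell.

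With cells, compared with ligation alone, 4 of the 41 genes passed the threshold: Atg13 and Ctsb were lower, Rb1cc1 and Optn were higher. This was 9.76% of the set, beside 9.87% of all genes (4.19% higher, 5.69% lower), and the median log2 fold change was 0.02, beside 0.00 for all genes. Library totals alone gave 1 higher and 2 lower, beside 436 and 927 of all genes. Leaving out ligation replicate 3, or ligation plus cells replicate 2, left 2 calls, Atg13 and Ctsb, which also passed without any other single library.

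Against sham, the hearts with ligation plus cells had 20 of the 41 genes higher and 5 lower, 61.0% of the set, beside 40.9% of all genes (21.0% higher and 20.0% lower). The median log2 fold change was 0.18, beside -0.01 for all genes. Library totals alone gave 27 higher and 2 lower, beside 4612 and 1698 of all genes, with the median of all genes at 0.15. The 3 comparisons share libraries pairwise, so their calls are not independent of each other. Without sham replicate 2, 18 of the 41 genes were called in this comparison, beside 5055 of 14104 genes tested. By step, 6 of 16 initiation genes were higher and 1 lower, 4 of 12 conjugation genes higher and 3 lower, all 4 receptors higher, 5 of 6 lysosomal genes higher, and 1 of 3 mitophagy genes higher and 1 lower. With TMM scaling and all 9 libraries, in none of the 3 comparisons did 16 of the 41 genes pass: Ulk1, Atg101, Pik3c3, Pik3r4, Atg14, Uvrag, Ambra1, Wipi2, Vmp1, Atg4b, Atg7, Atg10, Atg12, Gabarap, Tfeb and Fundc1. Of these, library totals alone called Ulk1, Wipi2, Vmp1, Atg7 and Gabarap after ligation, and Ulk1, Vmp1, Atg7, Atg10, Atg12, Gabarap and Fundc1 with cells against sham. Leaving out 1 library called Wipi2 between the ligated groups (ligation replicate 2), and against sham Ambra1 (sham replicate 3 or ligation plus cells replicate 1) and Atg101 (ligation plus cells replicate 2).

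**Figure D1:**
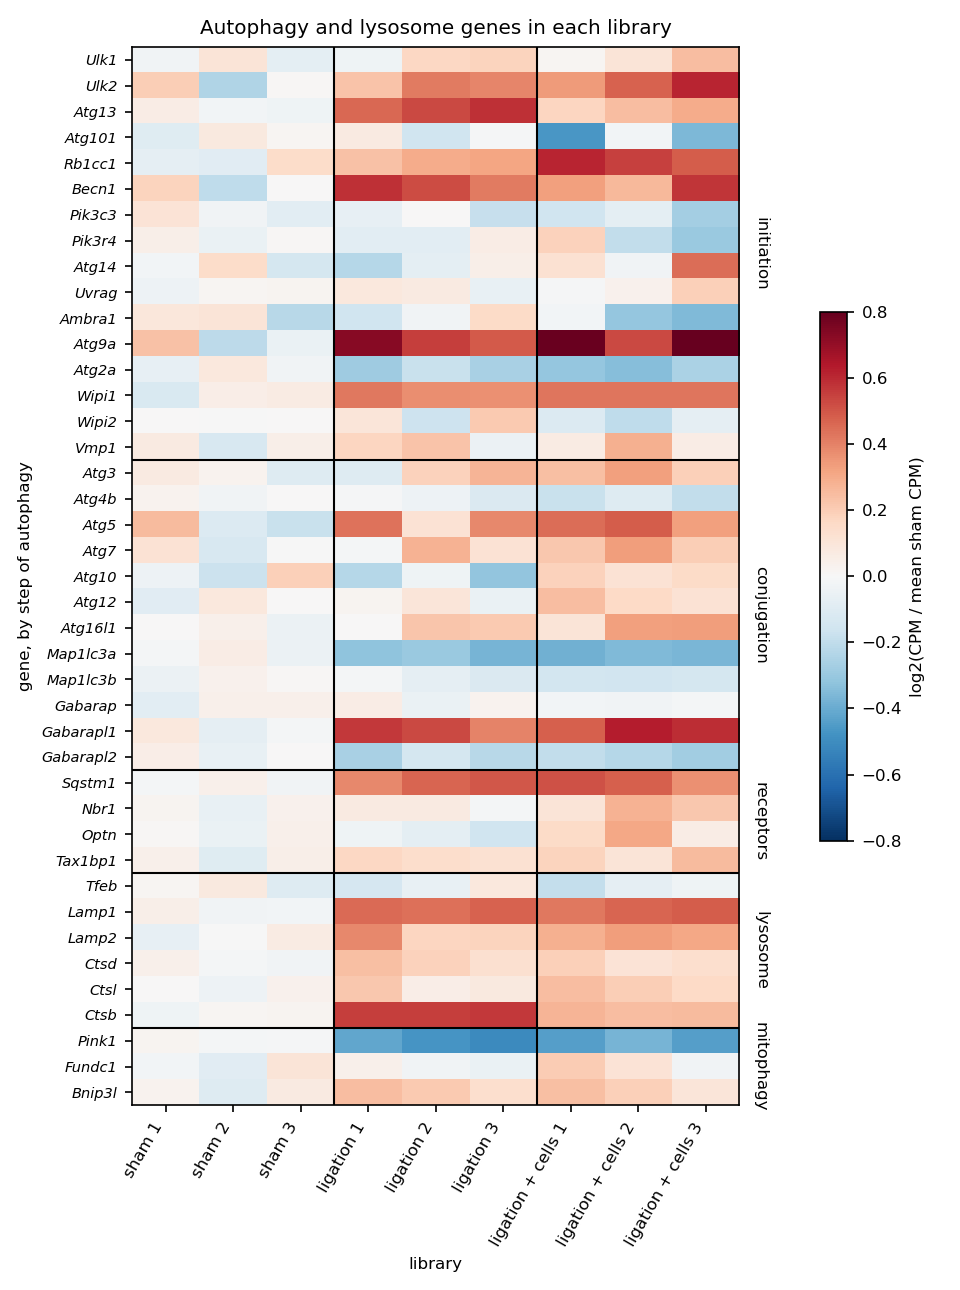
Each row is 1 of the 41 genes, each column 1 of the 9 libraries, and the colour gives log2 of CPM over the mean CPM of the 3 sham libraries (red higher, blue lower, scale from -0.8 to 0.8). Rows of Gabarapl1, Sqstm1, Lamp1, Ctsb and Atg9a are red and those of Pink1 and Map1lc3a blue in all 6 ligated libraries, and Ctsb and Atg13 are paler with cells.

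Initiation begins with the ULK1 complex, whose kinase subunits are Ulk1 and the related Ulk2 and whose scaffolds are Atg13, Rb1cc1 (FIP200) and Atg101. Atg13 (mm10 chr2:91674618-91710576) was measured at 69.6, 65.9 and 65.2 CPM in the sham libraries, 91.8, 96.4 and 100.4 after ligation and 75.3, 79.3 and 82.2 with cells. The groups do not overlap, and those with cells lie between the other two. Atg13 rose after ligation by 0.53 ± 0.07 (log2 fold change ± SE, n = 3 per group; edgeR adjusted p = 1.7e-06) and was lower with cells than without, at -0.29 ± 0.06 (edgeR adjusted p = 0.0048). Rb1cc1, the large scaffold around which the complex assembles, had 45.2, 44.6 and 52.7 CPM in sham, 55.8, 58.3 and 59.2 after ligation and 72.3, 69.5 and 66.4 with cells. Its groups formed an ascending order without overlap. The increase was 0.28 ± 0.08 after ligation (edgeR adjusted p = 0.0062) and 0.26 ± 0.07 from ligation to ligation plus cells (edgeR adjusted p = 0.026). The latter call was lost without any of ligation replicates 1 (0.24), 2 (0.26) and 3 (0.28) or ligation plus cells replicates 1 (0.23) and 2 (0.26), and with DESeq2 (0.27), library totals alone (0.23) or libraries of a shared header stem summed (0.27). The former was lost, at 0.24, when libraries with the same header stem were summed. Of its 31-mers, 12.8% also occur in other transcripts. Atg13 and Rb1cc1, scaffolds of the same complex, thus differed in opposite directions between the ligated groups.

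Ulk1, the kinase that gives the complex its name, had 58.4, 64.1 and 56.4 CPM in sham, 58.2, 66.8 and 67.4 after ligation and 60.1, 64.1 and 70.7 with cells, with overlapping groups. Its log2 fold change after ligation, 0.11 ± 0.08, did not pass (edgeR adjusted p = 0.29). With library totals alone it was 0.30 after ligation and 0.28 with cells against sham, and passed in both. Ulk2 rose after ligation by 0.36 ± 0.09 and was above sham by 0.48 ± 0.09 with cells (edgeR adjusted p = 0.0048 and 0.00027), from 72.6, 53.7 and 64.0 CPM in sham to 74.4, 84.7 and 83.1 and 80.3, 88.1 and 96.9. The third scaffold, Atg101, spanned 19.7 to 28.7 CPM over all libraries and passed in no comparison with all libraries, but against sham without ligation plus cells replicate 2.

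Among the class III PI3-kinase complexes, which make the lipid signal on the forming membrane, Becn1 was the only one of 6 genes past the threshold. Becn1 (beclin 1) was at 38.6, 29.6 and 34.3 CPM in sham, 51.4, 49.0 and 45.6 after ligation and 43.0, 40.9 and 50.9 with cells, so that every ligated library exceeded every sham library. It rose by 0.51 ± 0.10 after ligation (edgeR adjusted p = 0.00048) and was 0.40 ± 0.10 above sham with cells (edgeR adjusted p = 0.0037). Exons of Cntd1 overlap 43.9% of the Becn1 exons, and the strand setting of the counting is not stated, so its level is uncertain. The kinase Pik3c3 (VPS34), its regulatory subunit Pik3r4 and the partners Atg14, Uvrag and Ambra1 lay between 10.01 and 34.9 CPM in all libraries, with log2 fold changes after ligation between -0.08 and 0.03, none past the threshold.

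Membrane supply to the growing autophagosome showed changes in both directions. Atg9a, a lipid scramblase carried on vesicles that seed the membrane, had 17.3, 12.7 and 14.1 CPM in sham, 24.3, 21.6 and 20.6 after ligation and 25.4, 21.2 and 25.8 with cells. The ligated libraries, with or without cells, all exceeded sham. Its increase, 0.58 ± 0.14 after ligation and 0.72 ± 0.13 with cells against sham (edgeR adjusted p = 0.0018 and 0.00019), was the highest of the 41 genes in each of these comparisons, but 32.6% of its exon length is overlapped by other genes. Atg2a, the lipid transfer protein that works with Atg9a, was at 39.2, 43.5 and 40.2 CPM in sham, 33.7, 36.2 and 34.1 after ligation and 33.0, 32.3 and 34.3 with cells. It fell by 0.24 on the log2 scale after ligation (edgeR adjusted p = 0.028) and lay -0.30 ± 0.08 from sham with cells (edgeR adjusted p = 0.0058). The first call was lost without sham replicate 2 (-0.19), ligation replicate 1 (-0.22) or ligation replicate 3 (-0.24), with DESeq2 (-0.25) and without a filter (-0.23), and with library totals alone both calls were lost (-0.05 and -0.14). Wipi1, which reads the lipid signal, rose from 87.4, 98.7 and 99.4 to 127, 123 and 122 CPM (0.38 ± 0.06, edgeR adjusted p = 4.6e-05) and had 128, 128 and 128 CPM with cells. Its relative Wipi2 (48.7 to 64.9 CPM) and the scramblase Vmp1 (63.3 to 84.1 CPM) did not pass with TMM scaling and all libraries. With library totals alone both passed after ligation, and Vmp1 also with cells against sham, while Wipi2 passed between the ligated groups without ligation replicate 2.

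**Figure D2:**
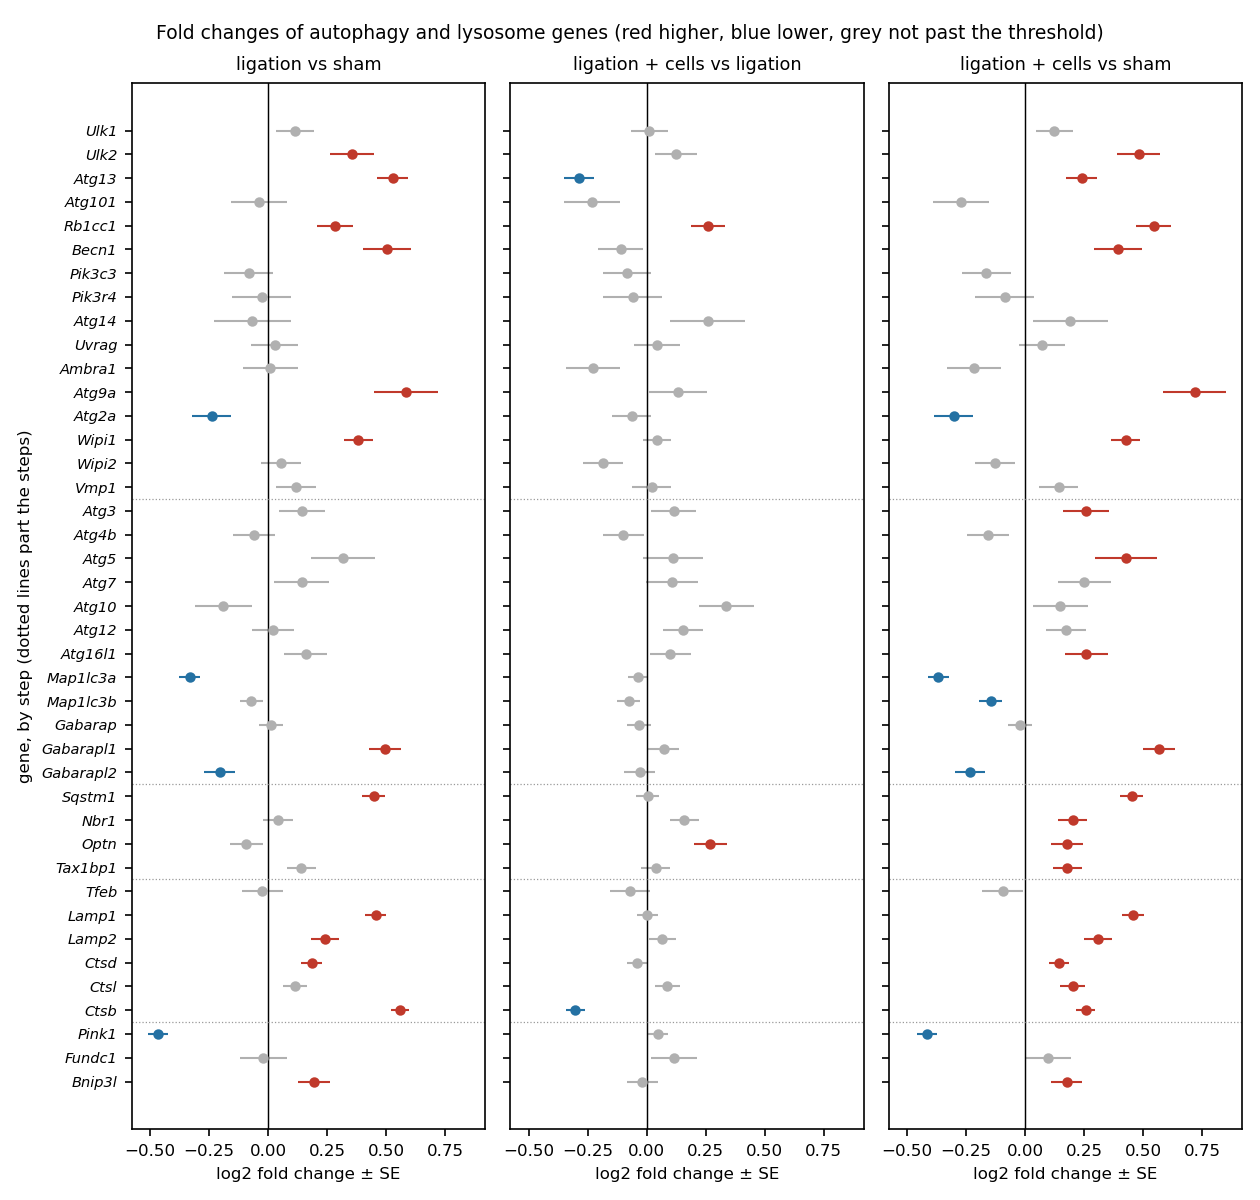
Log2 fold change with its SE (horizontal bars) for each of the 41 genes in the 3 comparisons, ordered by step; red points were higher and blue points lower past the threshold, grey points were not. The middle panel, ligation plus cells against ligation, has 4 coloured points, against 17 and 25 in the outer panels.

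In the conjugation step, none of the 7 enzymes passed after ligation with TMM scaling and all libraries: Atg7 (the activating enzyme), Atg3 and Atg10 (conjugating enzymes), Atg4b (the protease that primes Atg8 proteins), Atg12, Atg5 and Atg16l1 (which form the ligase complex) had log2 fold changes between -0.19 and 0.32. Against sham, hearts with cells had higher Atg5 (0.43 ± 0.13), Atg16l1 (0.26 ± 0.09) and Atg3 (0.26 ± 0.10), with edgeR adjusted p of 0.013, 0.026 and 0.039. Atg5 stood at 19.9, 15.5 and 14.8 CPM in sham, 22.6, 18.1 and 21.9 after ligation and 22.8, 23.4 and 21.0 with cells. Only the sham and cell groups were apart without overlap. The call of Atg5 was lost without sham replicate 2 (0.38) or sham replicate 3 (0.34), that of Atg3 without sham replicate 2 (0.27), sham replicate 3 (0.21), ligation plus cells replicate 1 (0.27) or ligation plus cells replicate 2 (0.22), and that of Atg16l1 without sham replicate 1 (0.26), sham replicate 3 (0.24), ligation plus cells replicate 2 (0.22) or ligation plus cells replicate 3 (0.22). The calls of Atg3 and Atg16l1 were also lost with DESeq2 (0.25 and 0.26) and with libraries of a shared header stem summed (0.25 in each), and that of Atg3 without mitochondrially encoded genes (0.24). These 3 genes fall outside the rule for named genes and were added after their values were seen, as were Wipi1, Nbr1 and Tax1bp1. Without sham replicate 2 or 3, 4 of the 12 conjugation genes were called in place of 7. Of the 7 enzymes after ligation, 1 had an unadjusted p under 0.05 with edgeR, and DESeq2 and limma-voom called 0. Library totals alone called Atg3, Atg5, Atg7 and Atg16l1, and Atg5 was also called without sham replicate 1 or ligation replicate 2.

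The Atg8 proteins coat the autophagosome and hold its cargo. Of their 5 genes, Gabarapl1 rose after ligation and Map1lc3a and Gabarapl2 fell. Map1lc3b and Gabarap did not pass with TMM scaling and all libraries. Per kilobase of the principal transcript in GENCODE, a scale on which genes can be compared, Map1lc3a led in sham with 522 ± 20.5 CPM per kb (SD, n = 3), followed by Gabarap with 200.1 ± 10.01, Map1lc3b with 109 ± 3.09, Gabarapl1 with 49.3 ± 2.67 and Gabarapl2 with 45.5 ± 1.76. After ligation the order was unchanged, with Map1lc3a at 415 ± 11.0 CPM per kb, Gabarap at 202 ± 8.15, Map1lc3b at 104 ± 3.62, Gabarapl1 at 69.6 ± 4.17 and Gabarapl2 at 39.4 ± 1.62. Gabarapl1 (chr6:129533160-129542346) had 95.0, 85.5 and 88.6 CPM in sham, 132, 129.5 and 118 after ligation and 125, 139 and 135 with cells. Every ligated library exceeded every sham library, and the ligated groups overlapped. The increase was 0.50 ± 0.07 after ligation (edgeR adjusted p = 5e-06) and 0.57 ± 0.07 with cells against sham (edgeR adjusted p = 7.1e-07). Exons of 1700101I11Rik overlap 28.3% of its exons, which makes its count uncertain.

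Map1lc3a, which encodes LC3A, the highest of these genes per kilobase, went the other way, from 574, 606 and 562 CPM in sham to 465, 472 and 448 after ligation and 446, 454 and 450.4 with cells. It fell by 0.33 on the log2 scale after ligation (SE 0.04, edgeR adjusted p = 4e-06) and by 0.37 with cells against sham (SE 0.04, edgeR adjusted p = 9.4e-07), without overlap with sham in either case. The ratio of Gabarapl1 to Map1lc3a counts, to which no scaling applies, was 0.166, 0.141 and 0.158 in sham, 0.285, 0.274 and 0.264 after ligation and 0.280, 0.305 and 0.300 with cells. This ratio was chosen after the values were known, and its separation of sham from the ligated libraries is a description. Gabarapl2 fell from 79.0, 73.2 and 76.5 to 63.7, 69.0 and 65.4 CPM after ligation (-0.20 ± 0.07, edgeR adjusted p = 0.018), a call lost without sham replicate 1 (-0.18), without ligation replicate 1 (-0.18), without a filter (-0.20) and with library totals alone (-0.02). With cells against sham it was at -0.23 ± 0.06 (edgeR adjusted p = 0.0067), lost with library totals alone (-0.07). Of the 31-mers of Gabarapl2, 15.3% also occur in other transcripts.

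Map1lc3b, which encodes LC3B, the usual protein marker of autophagosomes, had 268, 283 and 277 CPM in sham, 273, 262 and 254 after ligation and 249.8, 248 and 250.1 with cells. It did not pass after ligation (edgeR adjusted p = 0.27), and its log2 fold change with cells against sham was -0.15 ± 0.05 (edgeR adjusted p = 0.019), a call lost without sham replicate 2 (-0.13) or ligation plus cells replicate 1 (-0.15) and without a filter (-0.14), with a sign that turned under library totals alone (0.01). Gabarap, the founding member of its group, lay between 255 and 282 CPM in all 9 libraries and passed against sham with library totals alone, in both ligated groups, but not with TMM scaling.

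**Figure D3:**
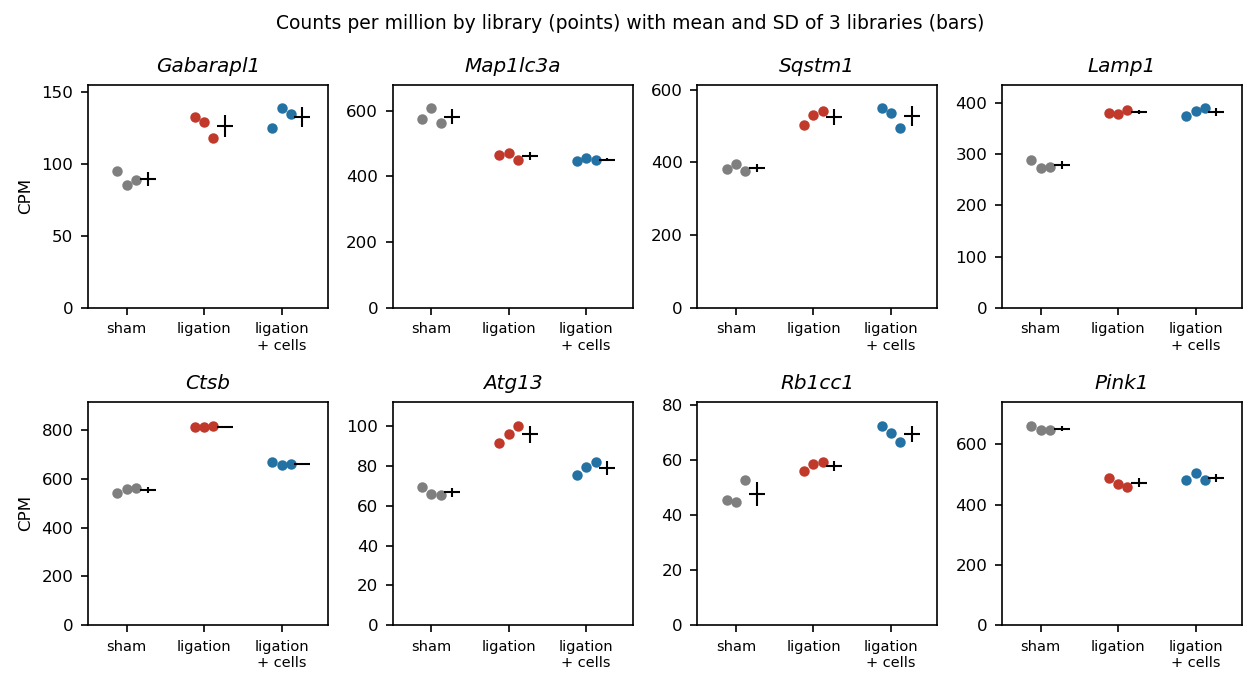
CPM of 8 genes by group, with 1 point per library and the mean with its SD beside them; each vertical axis starts at 0. Gabarapl1, Sqstm1 and Lamp1 are higher and Map1lc3a and Pink1 lower in all ligated libraries than in sham, while Ctsb and Atg13 with cells lie between sham and ligation.

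Of the receptors that tie cargo to Atg8 proteins, Sqstm1 (p62, which binds ubiquitinated protein) had the highest level and rose after ligation. Its libraries read 381, 396 and 378 CPM in sham, 502, 531 and 543 after ligation and 549, 536 and 496 with cells. Sham and ligated libraries were well apart, while the ligated groups overlapped. The log2 fold change was 0.45 ± 0.05 after ligation and 0.45 ± 0.05 with cells against sham (edgeR adjusted p = 2.6e-07 and 2.2e-07). Exons of Mrnip overlap 17.3% of its exons.

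Optn, a receptor for damaged mitochondria and protein aggregates, had 96.6, 92.8 and 98.7 CPM in sham, 93.8, 90.9 and 86.1 after ligation and 107, 119 and 99.97 with cells. All libraries with cells exceeded the others, and sham and ligation overlapped. It was higher with cells than after ligation alone by 0.27 ± 0.07 (edgeR adjusted p = 0.013), a call lost without ligation replicate 3 (0.24) or ligation plus cells replicate 2 (0.20). Against sham its 0.18 ± 0.07 (edgeR adjusted p = 0.044) was lost without any 1 of 7 of the 9 libraries (0.11 to 0.20, all except ligation replicate 1 and ligation plus cells replicate 3), and also with the replicate block (0.17), with DESeq2 (0.17), without mitochondrially encoded genes (0.16) and with stems summed (0.15). Nbr1 and Tax1bp1, which also bind ubiquitinated cargo, did not pass after ligation (both did with library totals alone) and were 0.20 ± 0.06 and 0.18 ± 0.06 above sham with cells (edgeR adjusted p = 0.013 and 0.023). The call of Nbr1 was lost without sham replicate 2 (0.17) or ligation plus cells replicate 2 (0.16) and that of Tax1bp1 without sham replicate 2 (0.13), ligation plus cells replicate 1 (0.18) or ligation plus cells replicate 3 (0.14), and also with libraries of a shared header stem summed (0.15). Of the 4 receptors above sham with cells, 1 remained without sham replicate 2 and 2 without ligation plus cells replicate 1 or 2.

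The lysosomal members comprise the membrane glycoproteins Lamp1 and Lamp2, the proteases Ctsb, Ctsd and Ctsl, and Tfeb, the transcription factor that drives many genes of lysosomes and autophagy through the CLEAR element, an extended E-box. Lamp1 (chr8:13159161-13175338) had 288, 274 and 274 CPM in sham, 381, 378 and 386 after ligation and 373, 384 and 389 with cells. Both ligated groups were above sham and overlapped with each other. It rose by 0.46 ± 0.05 after ligation (edgeR adjusted p = 7.7e-08) and stood 0.46 ± 0.05 above sham with cells (edgeR adjusted p = 6.7e-08). Lamp2, whose LAMP2A form serves chaperone-mediated autophagy, had 184, 192 and 202 CPM in sham, 251, 217 and 218 after ligation and 235, 243 and 239 with cells, which is 0.24 ± 0.06 after ligation and 0.31 ± 0.06 with cells against sham (edgeR adjusted p = 0.0028 and 0.00027). These counts do not tell the Lamp2 isoforms apart.

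Ctsb, cathepsin B, a cysteine protease (chr14:63122462-63145923), had 540.2, 558 and 561 CPM in sham, 813, 812 and 818 after ligation and 668, 656 and 659.9 with cells. The groups are far apart from each other relative to their spread, with the cell group in the middle. It rose after ligation by 0.56 ± 0.04 (edgeR adjusted p = 3.9e-10) and was lower with cells than without, at -0.30 ± 0.04 (edgeR adjusted p = 1.7e-05), remaining 0.26 ± 0.04 above sham (edgeR adjusted p = 2e-05). Macrophages hold much cathepsin B, and of the 17 macrophage markers 14 were higher and 1, Cd163, lower after ligation (median 0.685), and 16 were lower with cells than after ligation alone (median -1.245). Against sham with cells, where Ctsb was higher, 10 of the 17 were lower and 2 higher (median -0.661). Their part in the Ctsb difference was not tested, and in a bulk sample fewer cells of a type and less RNA per cell cannot be told apart.

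Ctsd, the aspartic protease cathepsin D, had 585, 562 and 556 CPM in sham, 669.9, 645 and 621 after ligation and 646, 613 and 623 with cells, an increase of 0.18 ± 0.04 and 0.14 ± 0.04 over sham (edgeR adjusted p = 0.002 and 0.011), the second of which was lost without ligation plus cells replicate 1 (0.12). Ctsl, the cysteine protease cathepsin L, did not pass after ligation (0.11 ± 0.05, edgeR adjusted p = 0.097, but 0.30 and past the threshold with library totals alone) and was above sham with cells (0.20 ± 0.05, edgeR adjusted p = 0.0039), from 255, 247 and 260.2 CPM to 295, 263 and 268 and 301, 291 and 284. Exons of other genes overlap 34.4% of Ctsd, 26.8% of Ctsl and 12.8% of Ctsb. Tfeb itself was at 42.9, 44.8 and 39.5 CPM in sham, 38.6, 40.7 and 45.0 after ligation and 37.2, 40.4 and 41.5 with cells, with overlapping groups. It did not pass (edgeR adjusted p = 0.85 after ligation), and the sign of its small log2 fold change turned with library totals alone (0.16) and without sham replicate 2 or ligation replicate 1 (0.017 and 0.018).

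Sequences before the start of these genes are shown because Tfeb is known to act through the E-box core CACGTG. RefSeq's promoter table (GRCm38.p6) holds 33 of the 41 genes, with 39 starts. The 250 bases before each start were searched on both strands, and a gene counted if any of its starts had a match. CACGTG, a palindrome, occurred in 6 of the 33 genes (Lamp1, Ctsd, Ctsl, Atg3, Atg5 and Atg7), 18.2%, and in 6.86% of all 27025 genes of the table. The start used for Atg7 lies 27999 bases inside the GENCODE gene, that for Ctsl 370, that for Ctsd 211 and that for Atg3 44 bases inside. The windows of Atg7 and Ctsl thus lie wholly within the annotated gene. So do most of the Ctsd window and the 44 bases nearest the start in that of Atg3. TCACGTGA, which contains that core, occurred in Ctsd and Atg3, and in 0.907% of all genes. GTAAACA, the FOXO core, occurred in 0 of the 33 genes and in 3.54% of all genes. Below are the 250 bases before the start of Lamp1 (chr8:13158911-13159160, plus strand), with 4 cores within 61 bases of the start, of Ctsd (chr7:142387828-142388077, minus strand), with 2, and of Atg3 (chr16:45158579-45158828, plus strand), with 2. Each is written 5′ to 3′ on the gene's strand with CACGTG in capitals.
Lamp1: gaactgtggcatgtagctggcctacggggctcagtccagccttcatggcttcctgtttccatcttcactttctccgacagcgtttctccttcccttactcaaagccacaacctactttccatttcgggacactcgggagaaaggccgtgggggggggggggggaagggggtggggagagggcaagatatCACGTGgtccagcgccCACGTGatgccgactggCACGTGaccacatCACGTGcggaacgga
Ctsd: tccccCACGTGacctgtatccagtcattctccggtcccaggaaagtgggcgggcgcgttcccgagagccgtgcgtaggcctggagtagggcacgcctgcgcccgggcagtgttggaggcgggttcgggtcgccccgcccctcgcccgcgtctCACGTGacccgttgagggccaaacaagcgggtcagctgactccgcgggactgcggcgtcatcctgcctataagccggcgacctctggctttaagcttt
Atg3: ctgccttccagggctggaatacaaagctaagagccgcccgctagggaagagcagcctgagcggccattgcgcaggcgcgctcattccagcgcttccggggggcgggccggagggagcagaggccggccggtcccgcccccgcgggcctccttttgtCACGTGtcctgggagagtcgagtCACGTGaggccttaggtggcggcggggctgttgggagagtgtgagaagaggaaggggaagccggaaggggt
Of the 6 genes with CACGTG, Lamp1 and Ctsd rose after ligation, beside 13 of all 41 genes. With TMM scaling and all libraries, Ctsl, Atg3, Atg5 and Atg7 did not pass. A match of letters describes the sequence and says nothing of binding in these hearts.

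Mitophagy, the removal of mitochondria by autophagy, can be started by the kinase Pink1, which gathers on damaged mitochondria, or by receptors in the outer mitochondrial membrane such as Bnip3l (NIX) and Fundc1. Pink1 (chr4:138313409-138326307) had 662, 646 and 649 CPM in sham, 488, 469.6 and 459 after ligation and 481, 503 and 482 with cells. All sham libraries exceeded all ligated ones by far more than the spread within groups. It fell by 0.47 on the log2 scale after ligation (SE 0.04, edgeR adjusted p = 2.2e-08) and by 0.42 with cells against sham (SE 0.04, edgeR adjusted p = 1e-07), the largest decrease of the 41 genes in each. Mitochondrially encoded transcripts were also a lower share of counts in these libraries, as given above, and 8 of 12 cardiomyocyte markers were lower after ligation (2 higher). Their part in the Pink1 difference was not tested. Without the mitochondrially encoded genes, 17 of the 41 genes were again called after ligation, 13 higher and 4 lower, and 22 in place of 25 with cells against sham, where Atg3, Optn and Bnip3l lost their calls.

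Bnip3l had 87.9, 80.4 and 90.6 CPM in sham, 102, 99.8 and 94.8 after ligation and 102, 98.3 and 92.2 with cells. It rose by 0.19 ± 0.07 after ligation (edgeR adjusted p = 0.026), a call lost without sham replicate 2 (0.14), ligation replicate 1 (0.17) or ligation replicate 2 (0.19), with DESeq2 (0.19), with only the 2 groups compared (0.18) and with libraries of a shared header stem summed (0.17), and 23.7% of its 31-mers also occur in its pseudogene Bnip3l-ps. With cells it was 0.18 ± 0.07 above sham (edgeR adjusted p = 0.039), lost without sham replicate 1 (0.19) or 2 (0.13), ligation replicate 3 (0.16) or ligation plus cells replicate 1 (0.14) or 2 (0.17), and also with DESeq2 (0.17), without mitochondrially encoded genes (0.16) and with stems summed (0.15). The ratio of Bnip3l to Pink1 counts, also chosen after the values were known, was 0.133, 0.124 and 0.140 in sham, 0.210, 0.213 and 0.207 after ligation and 0.212, 0.195 and 0.191 with cells, so sham lay below every ligated library. Fundc1 ranged from 25.5 to 31.2 CPM and passed in no comparison with TMM scaling, but with library totals alone it passed with cells against sham.

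Other genes of the pathway were read from lists by role. After ligation, 21 of 33 other lysosomal enzymes rose and 3 fell (median log2 fold change 0.35), and 8 of 17 tested lysosomal membrane and cofactor proteins rose and 2 fell (0.23), beside 20.1% higher and 18.0% lower and a median of 0.01 over all genes. In the same comparison 14 of 17 macrophage markers (median 0.685) and 7 of 10 fibroblast markers (median 0.406) were higher, and their part was not tested. The naming rule takes the 2 largest increases within each list. Among the enzymes, Acp5, tartrate-resistant acid phosphatase, was at 3.45 (0.794 to 1.25 CPM in sham and 9.55 to 12.6 after ligation). Ctss, a cathepsin of antigen-presenting cells, was at 1.30 (28.2 to 28.9 CPM in sham and 67.6 to 75.8 after ligation). Among the membrane and cofactor proteins, they were Laptm5 at 0.97 and the cholesterol carrier Npc2 at 0.74. Among those that fell were Idua at -0.64, Scarb2 at -0.32, Ctsk at -1.13 (lost without sham replicate 1 or 2 or ligation replicate 2 or 3, -0.89 to -1.07) and Psap at -0.13, whose sign turned with library totals alone (0.05).

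With cells, 12 of the 33 enzymes and 6 of the 17 membrane and cofactor proteins were lower than after ligation alone and 0 higher, with medians of -0.19 and -0.09 beside 5.69% lower and a median of 0.00 over all genes. Ctsc, which activates granule proteases, went from 65.6, 59.3 and 70.1 to 23.7, 25.1 and 22.2 CPM (-1.46), Ctss from 75.8, 69.5 and 67.6 to 24.2, 25.9 and 27.5 (-1.45), Laptm5 from 78.2, 76.3 and 82.0 to 25.0, 26.8 and 29.2 (-1.55) and Cd68, itself a macrophage marker, from 25.8, 23.6 and 23.5 to 9.64, 8.88 and 10.2 (-1.33), each without overlap. In the same libraries 16 of the 17 macrophage markers fell, Cd68 among them, with a median log2 fold change of -1.245, as did both tested neutrophil markers, S100a8 at -0.96 and S100a9 at -1.31. Their part was not tested. Of the other lists, formation genes had 1 of 20 past the threshold in this comparison, fusion genes 0 of 15, V-ATPase subunits 0 of 18, regulators 2 of 29 and mitophagy genes 1 of 17, beside 9.87% of all genes called in either direction. For the counts of 0, edgeR's smallest adjusted p was 0.0751 for fusion genes and 0.0682 for V-ATPase subunits. At an unadjusted p under 0.05 there were 4 genes in each list. DESeq2 called 0 in both, limma-voom called 0 fusion genes and 1 V-ATPase subunit, and 1 fusion gene was called without ligation plus cells replicate 1 and 1 subunit without replicate 3.

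**Figure D4:**
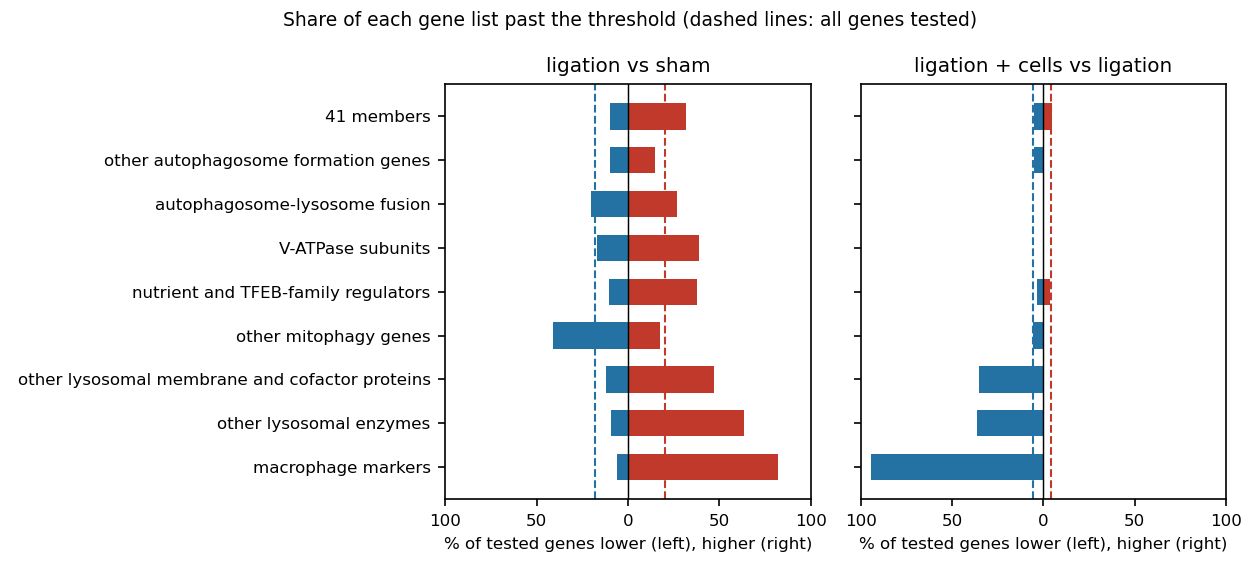
Share of the tested genes of each list that were higher (red, to the right) or lower (blue, to the left) past the threshold, for ligation against sham and for ligation plus cells against ligation. Dashed lines give the same shares over all genes tested. The 41 genes lie near the dashed lines in the right panel, where 36.4% of the other lysosomal enzymes and 94.1% of macrophage markers were called, all lower.

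Each of the remaining lists had genes past the threshold in both directions after ligation, beside 20.1% higher and 18.0% lower over all genes. Of 20 other autophagosome formation genes, 3 rose and 2 fell, 25.0% called beside 38.2% of all genes: Atg4c (0.78, lost without sham replicate 1 or ligation replicate 3, 0.62 and 0.67) and Trp53inp1 (0.41, lost without the same libraries, 0.32 and 0.34) led the increases, Wdr45 (-0.67) and Ei24 (-0.19, lost without sham replicate 2 or 3, ligation replicate 2 or ligation plus cells replicate 1 or 3, -0.13 to -0.19, and at 0.00 with library totals alone) the decreases. Without sham replicate 1 or ligation replicate 3, 3 of the 20 were called. Of 15 genes of fusion with the lysosome, 4 rose and 3 fell, led by the SNARE protein Stx17 (0.40) and Vps18 (0.34, lost without sham replicate 1 or 3 or ligation replicate 2 or 3, 0.25 to 0.36), and by Rilp (-0.50) and Tecpr1 (-0.24). Of 18 subunits of the V-ATPase, the proton pump of lysosomes, 7 rose and 3 fell, and Atp6v0e2 rose by 0.80. Without sham replicate 1 or ligation replicate 2, 6 and 5 subunits were called in place of 10. Atp6v1g1 fell by 0.20 on the log2 scale (lost, at -0.17, without sham replicate 1 or ligation replicate 2). Atp6v0d2, which was called higher, had 0.165 to 0.356 CPM in sham, under the detectable level, and 1.28 to 3.25 after ligation. Atp6v0c fell, from 3.97 to 5.27 CPM in sham to 1.30 to 2.13 after ligation. Among 29 regulators of nutrient sensing and of the TFEB family, 11 rose and 3 fell, with the mTORC1 inhibitors Ddit4 (REDD1) at 0.83 and Sesn3 at 0.76, and with Mitf at -0.40 and Lamtor2 at -0.39. Of 17 other mitophagy genes, 3 rose and 7 fell: Bnip3 rose by 0.75 (57.0% of its 31-mers occur elsewhere too), and Mtx1 and Tomm7 were at -0.66 and -0.62.

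Between the ligated groups the few calls in these lists were Nrbf2 at -0.65 (76.2% of 31-mers shared, lost without ligation replicate 2 or 3 or ligation plus cells replicate 1 or 2, -0.56 to -0.67), Bnip3 at -0.35 (lost without ligation plus cells replicate 3, -0.28), Mitf at 0.27 (lost without any 1 library except sham replicate 3, 0.23 to 0.31, and also with limma-voom, DESeq2, the replicate block, no filter, only the 2 groups compared, library totals or libraries with a shared header stem summed, 0.24 to 0.28) and Tfec, which had 1.25 to 1.74 CPM after ligation and 0.144 to 0.425 with cells, near the detectable level, and whose call was lost without ligation replicate 2 or ligation plus cells replicate 3. Against sham, hearts with ligation plus cells had 9 of 33 lysosomal enzymes higher and 5 lower, beside 21.0% higher and 20.0% lower over all genes, with Acp5 at 2.58 and Ctsc at -1.36, and 4 of 17 membrane and cofactor proteins higher and 5 lower, with Npc2 at 0.42, Cd68 at -0.83 and Laptm5 at -0.57. Regulators had 11 of 29 higher and 3 lower (Ddit4 0.93, Sesn3 0.73, Lamtor2 -0.44). V-ATPase subunits had 7 of 18 and 4 (Atp6v0e2 0.48, Atp6v0b -0.33), and fusion genes 4 of 15 and 4 (Vps41 0.47, Snap29 0.36, Rilp -0.43, Vamp8 -0.32). Other formation genes had 4 of 20 and 2 (Wdr45 -0.91) and other mitophagy genes 6 of 17 and 6 (Tomm7 -0.53). Ddit4 had 65.5, 67.7 and 69.7 CPM in sham, 119.5, 126 and 116 after ligation and 124, 138 and 124 with cells. Its ligated libraries all lay above sham, and the ligated groups overlapped.

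Several further calls against sham were lost when 1 library was left out. Atg4c (0.71) lost its call without sham replicate 1 (0.55) or ligation plus cells replicate 3 (0.57), and Trp53inp1 (0.40) without sham replicate 1 (0.31) or ligation plus cells replicate 3 (0.34). Without either of these libraries, 3 of the 20 other formation genes were called in place of 6. Nrbf2 (-0.62) lost it without sham replicate 3 (-0.49) or ligation plus cells replicate 1 (-0.53), and Atp6v0c (-1.05) without sham replicate 2 (-0.95) or ligation plus cells replicate 1 (-0.85). Mtx1 (-0.50) lost it without sham replicate 1 (-0.41), sham replicate 3 (-0.49) or ligation plus cells replicate 3 (-0.28), and Pgam5 (0.70) without sham replicate 1 (0.57), sham replicate 3 (0.58), ligation replicate 3 (0.68), ligation plus cells replicate 1 (0.72), ligation plus cells replicate 2 (0.72) or ligation plus cells replicate 3 (0.67). Without sham replicate 3, 7 of the 17 other mitophagy genes were called in place of 12. Ctsk (-1.71) and Arsb (1.17) kept their calls without any 1 library. Atp6v0d2 and Tfec, called in this comparison, had at most 3 counts in some groups' libraries, so no fold is given: Atp6v0d2 had 0.165 to 0.356 CPM in sham and 0.694 to 1.56 with cells, and Tfec 0.890 to 1.81 in sham and 0.144 to 0.425 with cells. The call of Atp6v0d2 was lost without sham replicate 2 or ligation plus cells replicate 1 or 3, and that of Tfec without sham replicate 2 or ligation plus cells replicate 3. With DESeq2, the calls of Ei24 and Vps18 after ligation, of Nrbf2 and Tfec between the ligated groups, and of Mtx1 and Pgam5 against sham were also lost. Summing libraries of a shared header stem lost the calls of Ctsk, Ei24, Trp53inp1 and Vps18 after ligation and of Nrbf2 between the ligated groups. Library totals alone lost those of Atp6v1g1, Mitf, Scarb2 and Tecpr1 after ligation and of Atp6v0b, Mtx1, Nrbf2 and Vamp8 against sham. Leaving out the mitochondrially encoded genes lost that of Vps18, and testing without a filter that of Ei24. Shared sequence makes several of these counts uncertain: 31-mers found in other transcripts made up 76.2% in Nrbf2, 58.8% in Pgam5, 39.6% in Arsb and 24.7% in Mtx1. They made up 24.0% in Atp6v1g1, 19.4% in Wdr45 and 11.9% in Atp6v0c.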

How the data were processed

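RNA from the infarct border zone of mouse hearts (9 libraries) was extracted with TRIzol and prepared with a NEBNext Ultra kit, per the labels. The authors deposited raw read counts per Ensembl gene for each library. The build is mm10, per the submitters' processing notes. The aligner, counter, annotation and strand setting are not given in the sources used here. Reads outside any feature (4.14% to 4.91%) or ambiguous between features (8.09% to 8.72%) were left out. Gene IDs were matched to symbols and exons with GENCODE M21.

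Groups follow the labels' titles. Counts of all 3 groups were fitted together with edgeR 4.0.16 (TMM scaling, quasi-likelihood test, Benjamini-Hochberg adjustment over 13825 genes, threshold 0.05) in R 4.3.3, after its filter on low counts. The procedure was tested on simulated data. Alternatives used DESeq2 1.42.0, limma 3.58.1 (voom), other scalings and filters, and each library left out. Replicates of a group differed by more than counting noise (chi-square per gene 1.96 to 3.89). Figures were drawn with matplotlib 3.10.9 in Python 3.11.15.

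The 41 genes and all lists were chosen with earlier results of these data known. Named with values are, per comparison, the 6 largest increases and 6 largest decreases past the threshold among the 41 genes, 13 genes whatever their values, and from each list the 2 largest of each direction with a mean of at least 1 CPM. Some genes that this rule names are not reported here.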

Additional observations from a re-analysis of the deposited data

How the results depend on the processing

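The count of the 41 genes past the threshold after ligation, 17, was 15 to 17 under every other setting except library totals alone, which gave 26, and 14 to 17 when each library was left out. For ligation plus cells against ligation it was 3 to 4 in place of 4, and 2 to 4 when each library was left out. Against sham it was 20 to 29 in place of 25, and 18 to 25 when each library was left out. With the replicate block the counts were 17, 4 and 24. The numbers share no stated origin, and deviations of same-numbered libraries correlated between -0.122 and 0.144 over 9414 genes, so the block is not read as a pairing. Of 2200 values for 116 named fold changes, 2032 kept their direction and side of the threshold, 157 lost the call, 3 gained it and 8 changed sign; the cause was not tested. With library totals alone the sign turned for Map1lc3b (0.12 after ligation, 0.012 with cells against sham), Tfeb (0.16 and 0.063), Ei24 (0.0013) and Psap (0.054). When each library was left out, Tfeb after ligation ranged from -0.11 to 0.018. Summing libraries with a shared header stem, a setting chosen after seeing the data, gave 15, 3 and 20 calls. Depth limits low genes: with 3 counts at 0.375 to 0.639 CPM, Atp6v0d2 and Tfec lay near that level.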
